A study of Homo sapiens with 4 samples.

Results

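The AP-1 and immediate early factors are 10 genes (FOS, FOSB, FOSL1, FOSL2, JUN, JUNB, JUND, ATF3, EGR1 and IER2), chosen by symbol from the 59050 gene symbols of the deposited counts. All 10 were found, and all 10 passed the filter on low counts, which left 17479 genes. RNA-seq covered 4 libraries that carry the label of HepG2, a line of human hepatoma cells. In 2 of them the cells were untreated (0 h), and in the other 2 they had received the DNA-damaging agent doxorubicin (1 ug/ml for 24 h) for the induction of p53. All 4 shared the line, the medium and poly(A) selection. The titles of the treated samples name p53, while their treatment tag reads p53-miRNA, and groups were taken from the titles. The design text calls the replicates biological but does not say whether they were separate cultures, so p-values measure only the spread between these libraries. Each group is 1 cell line, and in such bulk RNA fewer cells that make a transcript and less of it per cell cannot be told apart.

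AP-1 is a dimer of basic leucine zipper proteins. A Fos protein (FOS, FOSB, FOSL1, FOSL2) does not form stable dimers with itself and typically pairs with a Jun protein (JUN, JUNB, JUND), whereas Jun proteins can also pair with each other or with ATF3, and Fos-Jun dimers bind the letters TGACTCA or TGACGTCA. Immediate early genes such as FOS, EGR1 and IER2 are transcribed within minutes of a growth or stress signal without new protein synthesis, and their mRNAs are short-lived. In liver, JUN and the other AP-1 genes are known for their induction during regeneration and injury.

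The libraries were examined first. The libraries held 27572740 to 36272180 counts, and 3 counts, the smallest number taken as a signal, correspond to 0.0827 to 0.109 CPM (the count divided by the library total and scaled to 1000000). Untreated replicate 2 stood apart: the Pearson correlation of its log2 CPM with the other libraries, across 17479 genes that are not independent replicates, was 0.896 to 0.903, against 0.983 to 0.992 among the other 3. It also had a count on 31258 genes, against 25734 to 27609 in the others. The liver label was not borne out by its markers, as 11 of 18 liver genes stayed under 1 CPM in every library. ALB (serum albumin) reached 0.109 CPM at most. The list summed to 1.46 and 6.09 CPM in untreated and 17.4 and 20.7 CPM in doxorubicin libraries. Most of the doxorubicin sums came from FGG, which had 0.165 and 0.104 against 9.76 and 13.999 CPM. FGB had 0.193 and 0.173 against 3.09 and 2.54 CPM. TF and AFP were highest in untreated replicate 2, at 1.63 and 1.49 CPM, and reached at most 0.471 and 0.466 CPM elsewhere. The sums therefore do not show a rise of these markers as a class. Of 7 keratins, KRT8 and KRT18, which hepatocytes make, were at 2088 to 4105 and 783 to 1793 CPM. KRT7, known from bile ducts, was at 2064 to 2487 CPM, and KRT19, also known from bile ducts, was at 0.589 CPM at most. KRT5 was at 0.381 CPM at most and KRT20 at 0. KRT14 had 2.81 and 2.39 CPM in untreated and 7.43 and 5.15 CPM in doxorubicin libraries. KRT8 ran the other way, with 4105 and 3968 against 2440 and 2088 CPM. Blood cell markers summed to at most 0.589 CPM (CD68 and HBB at 0). Endothelial markers summed to 10.0 and 5.33 CPM in untreated and 3.64 and 2.90 CPM in doxorubicin libraries. Of these, CDH5 had 8.52 and 3.29 against 1.46 and 0.943 CPM, and PECAM1 had 1.16 and 0.935 against 1.14 and 1.12 CPM. Fibroblast markers summed to 226 and 169 CPM in untreated and 283 and 284 CPM in doxorubicin libraries, but did not move together. LUM had 65.4 and 49.3 against 135 and 163 CPM, and COL3A1 had 70.0 and 69.1 against 55.8 and 46.0 CPM. The part of these genes in the results below was not tested.

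The sequences just before the gene starts of EGR1, FOS, FOSB, JUN and JUND are shown because the first 4 of these genes were far apart between the untreated libraries while JUND was not. They come from RefSeq (GRCh38.p14) and cover the 210 bases before the start, 5′ to 3′ on the strand of the gene. Capitals mark matches on either strand to the AP-1 letters TGACTCA, to the full cAMP element TGACGTCA and its short form TGACGT (which lies within the full one), to the variant TGACATCA, to GCGNGGGCG and to the CArG box, to which the serum response factor SRF binds. TGACGT on the opposite strand reads ACGTCA.
EGR1 (chr5:138465269-138465478, plus strand): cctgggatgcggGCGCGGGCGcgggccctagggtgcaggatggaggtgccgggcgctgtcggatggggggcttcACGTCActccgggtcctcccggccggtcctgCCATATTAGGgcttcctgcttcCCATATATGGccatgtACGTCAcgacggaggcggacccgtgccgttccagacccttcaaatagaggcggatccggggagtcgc
FOS (chr14:75278618-75278827, plus strand): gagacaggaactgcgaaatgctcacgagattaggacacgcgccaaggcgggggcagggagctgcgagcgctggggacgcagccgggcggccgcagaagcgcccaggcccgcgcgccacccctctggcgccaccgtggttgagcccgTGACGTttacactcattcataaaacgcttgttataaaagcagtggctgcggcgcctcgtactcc
FOSB (chr19:45467786-45467995, plus strand): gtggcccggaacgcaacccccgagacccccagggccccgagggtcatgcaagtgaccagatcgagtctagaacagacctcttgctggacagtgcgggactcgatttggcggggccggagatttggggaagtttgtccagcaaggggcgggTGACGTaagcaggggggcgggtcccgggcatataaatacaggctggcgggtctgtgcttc
JUN (chr1:58784048-58784257, minus strand): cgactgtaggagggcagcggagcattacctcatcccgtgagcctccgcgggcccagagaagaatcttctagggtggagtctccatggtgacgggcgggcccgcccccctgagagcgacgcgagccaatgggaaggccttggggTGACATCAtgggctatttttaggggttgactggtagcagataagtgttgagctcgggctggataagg
JUND (chr19:18281623-18281832, minus strand): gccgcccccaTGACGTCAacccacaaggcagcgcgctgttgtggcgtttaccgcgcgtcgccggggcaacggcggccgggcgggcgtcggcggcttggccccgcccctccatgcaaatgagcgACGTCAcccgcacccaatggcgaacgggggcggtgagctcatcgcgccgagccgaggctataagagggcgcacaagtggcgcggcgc

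Promoters of 9 of the 10 genes were found in the RefSeq table, and FOSL1 had no entry. ATF3 had 2 promoters there. The 9 are counted by gene, while the shares over all are counted by promoter. In the 250 bases before the start, TGACGT was found in 5 of the 9 genes (FOS, FOSB, FOSL2, JUND, EGR1) and in 7.1% of all 35116 promoters. Among the 5 it lay 64 to 59 bases before the start in FOS and 60 to 55 bases before it in FOSB. TGACATCA was found in JUN, 67 to 60 bases before the start, and in 1 of the 2 ATF3 promoters, 123 to 116 bases before its start. The share over all promoters was 2.37%. The full TGACGTCA was found in JUND alone among the 9 (1.65% of all promoters), and TGACTCA in none of them (4.2%). Within these 250 bases EGR1 alone held CArG boxes, which lay 105 to 96 and 83 to 74 bases before its start (1.16% of all promoters). It also alone held GCGNGGGCG, a site of the EGR family (8.41%). Sites further upstream were not searched, so a gene without a match here may still have the site there. The genes with TGACGT differed in how far the untreated libraries were apart, as FOS, FOSB and EGR1 were at least 10-fold higher in replicate 2, FOSL2 was lower there and JUND was less than 2-fold apart, while ATF3 was over 10-fold higher without TGACGT. These matches are descriptions of letters, not of binding.

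The level of each factor was first read library by library. FOS (chr14:75278826-75282230), the founding member of its family, had 7.39 and 81.6 CPM in untreated replicates 1 and 2 and 9.50 and 11.8 CPM in doxorubicin replicates 1 and 2. FOSB (chr19:45467995-45475179) had 2.12 and 232 CPM in untreated and 4.31 and 6.67 CPM in doxorubicin libraries, the widest fold range of the 10 genes. For both genes replicate 2 of the untreated cells towered over the other 3 libraries, and the doxorubicin libraries lay between the untreated ones, so the groups overlapped. The 2.12 CPM of FOSB rest on 77 counts, with an exact (Clopper-Pearson) 95% interval of 1.68 to 2.65 CPM that covers counting error only. FOSB overlaps ERCC1 on the other strand, and since the use of strand in counting is not stated, reads of these genes cannot be told apart.

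FOSL1 (chr11:65892049-65900573), which encodes FRA1, a Fos protein without a strong activation domain, had 41.1 and 109 CPM in untreated and 94.0 and 97.6 CPM in doxorubicin libraries. Untreated replicate 1 was the low library here, and the other 3 were close together. FOSL2 (chr2:28392448-28417317), which encodes the related FRA2, had 405 and 135 CPM in untreated and 523 and 486 CPM in doxorubicin libraries. It was the 1 gene of the 10 that was at least 2-fold lower in untreated replicate 2 than in replicate 1, and its doxorubicin libraries were above both untreated ones.

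Of the Jun genes, JUN (chr1:58776845-58784048), whose protein also forms homodimers, had 38.1 and 379.7 CPM in untreated and 139 and 154 CPM in doxorubicin libraries. The doxorubicin libraries were close together and lay between untreated libraries that were 9.97-fold apart. JUNB (chr19:12791486-12793315), a weaker activator than JUN, had 213 and 298 CPM in untreated and 373 and 410.5 CPM in doxorubicin libraries, without overlap. JUNB overlaps HOOK2 on the other strand, with the same limit as FOSB. JUND (chr19:18279694-18281622), known for steady expression in resting cells, had 133 and 112 CPM in untreated and 150.1 and 199 CPM in doxorubicin libraries, again without overlap.

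ATF3 (chr1:212565334-212620777), a stress-induced factor and known p53 target, had 10.4 and 333 CPM in untreated and 49.8 and 65.6 CPM in doxorubicin libraries. EGR1 (chr5:138465479-138469303), a zinc finger factor induced by serum, had 7.64 and 90.6 CPM in untreated and 8.16 and 12.7 CPM in doxorubicin libraries. In both, untreated replicate 2 was again the highest library and the groups overlapped. IER2 (chr19:13150411-13154911), a small nuclear protein of the immediate early class, was the steadiest gene, with 114 and 117 CPM in untreated and 108 and 99.9 CPM in doxorubicin libraries, both below the untreated ones. GENCODE release 44 also places genes over FOSL2 (1 on each strand) and IER2 (2 on the other strand).

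**Figure D1:**
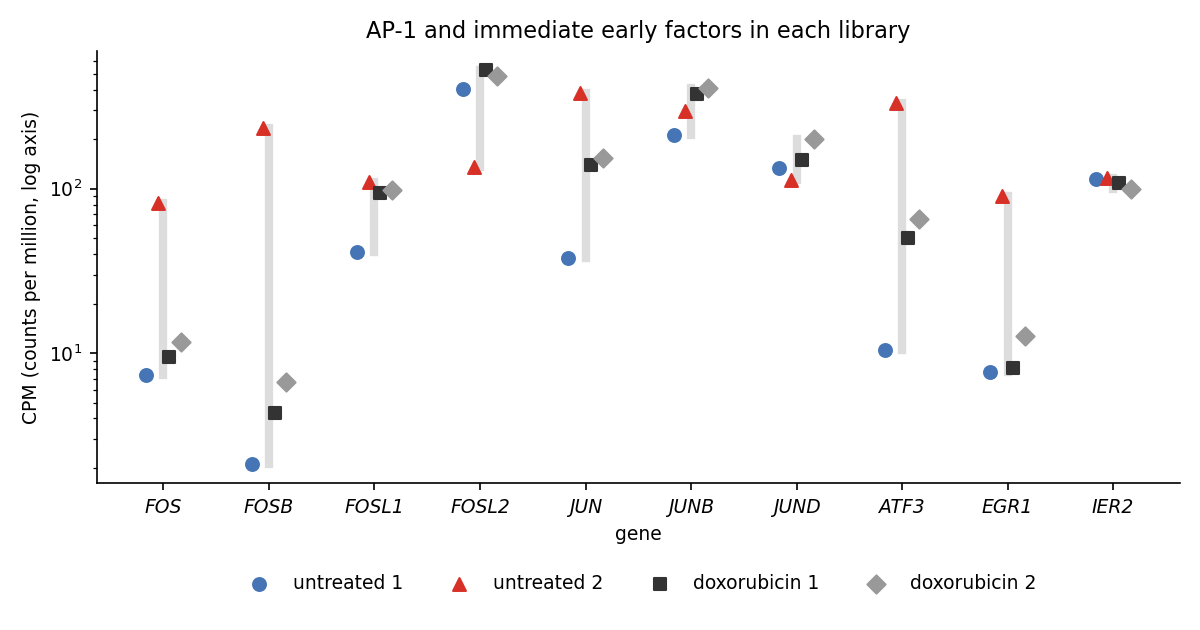
CPM of each of the 10 genes (x axis) on a log axis (y axis), with 1 symbol per library and a grey bar from the lowest to the highest library. Untreated replicate 2 (red) is far above the other libraries in FOS, FOSB, ATF3 and EGR1 and below them in FOSL2, while the 2 doxorubicin libraries lie close together.

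Per length of transcript (CPM per kilobase of the canonical transcript in GENCODE release 44), JUNB had the highest level of the 10 in untreated replicate 1 (116) and in both doxorubicin libraries (204 and 224), and FOSB the lowest (0.562, 1.14 and 1.77). In the doxorubicin libraries JUND (77.8 and 103) and FOSL2 (77.9 and 72.3) followed and changed places between replicates, so their order is not set. FOSL1 (55.2 and 57.4), IER2 (51.2 and 47.3), JUN (42.6 and 47.2) and ATF3 (25.7 and 33.8) came next, with IER2 and JUN nearly touching, and FOS (4.52 and 5.58) and EGR1 (2.60 and 4.03) were low. Untreated replicate 1 had the order JUNB, JUND, FOSL2, IER2, FOSL1, JUN, ATF3, FOS, EGR1, FOSB. In untreated replicate 2 ATF3 had the highest level (172 CPM per kilobase), followed by JUNB (163) and JUN (117), and FOSL2 had the lowest (20.1). FOSB was at 61.6 there and not among the lowest genes, whereas FOS (38.8), EGR1 (28.9) and FOSL2 were the 3 lowest.

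The untreated libraries were then compared with each other. Untreated replicate 2 was at least 2-fold above replicate 1 in 6 of the 10 genes, against 23.5% of all genes tested, and at least 10-fold above it in 4 of the 10 (FOSB 109-fold, ATF3 32.2-fold, EGR1 11.9-fold and FOS 11-fold), against 4.42% of all genes. It was the highest library in 7 of the 10 (36.6% of all genes) and the lowest in 2 (45% of all genes). FOSL2 was at least 2-fold below replicate 1, as were 22.5% of all genes. The doxorubicin libraries differed from each other by less than 2-fold in all 10, and only 107 of all 17479 genes were 2-fold or more apart between them. Exon number moved with the gap over all genes: untreated replicate 2 was at least 2-fold above replicate 1 in 46.4% of 265 protein-coding genes with 1 exon, against 17.5% of 12423 with more exons. JUN, JUNB and JUND have 1 exon, and JUNB and JUND were not 2-fold apart, whereas FOS, FOSB and ATF3 have 4 exons and EGR1 has 2. The part of exon number in the result was not tested.

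**Figure D2:**
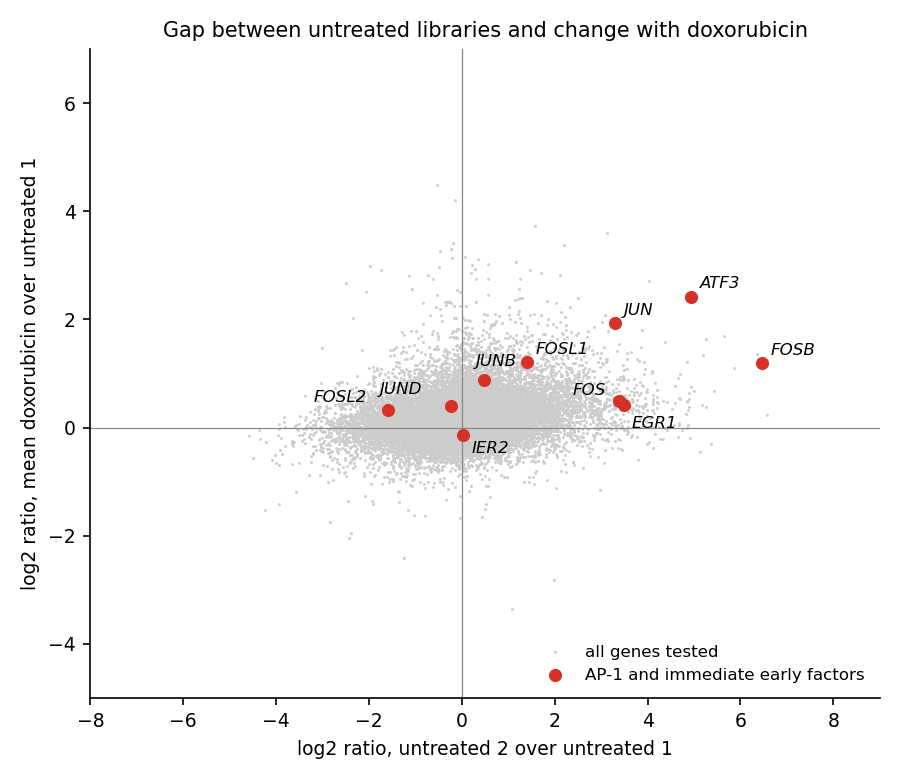
Log2 ratio of untreated replicate 2 to untreated replicate 1 (x axis) and of the mean of both doxorubicin libraries to untreated replicate 1 (y axis) for all genes tested (grey) and the 10 genes (red), with 0.5 CPM added to each value. Both axes share untreated replicate 1. FOSB, ATF3, EGR1, FOS and JUN lie far to the right, and JUN and ATF3 also lie high.

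Doxorubicin-treated cells were then compared with untreated cells over all 4 libraries, to ask which of the factors differ between the groups. The untreated libraries are labelled 0 h and the treated ones 24 h. In this and the later comparisons the drug and the time therefore cannot be told apart. A gene was called when its adjusted p-value (quasi-likelihood test of edgeR with Benjamini-Hochberg adjustment over all genes tested) was under 0.05 and its log2 fold change was at least 1 in size. Of the 10 genes 0 were called, as were 0% of all 17479 genes, and 0 had an unadjusted p-value under 0.05, against 4.39% of all genes. DESeq2 called 1 of the 10, FOSB, and 0.515% of all genes. The log2 fold changes were -2.22 (standard error 1.05) for FOS, -4.58 (1.85) for FOSB, -2.40 (1.09) for EGR1, -1.73 (1.33) for ATF3 and -0.67 (0.95) for JUN, and the adjusted p-values of edgeR lay between 0.773 and 0.911 for the 10 genes. The standard errors of these 5 genes were 0.949 to 1.85, against 0.303 to 0.540 for the other 5. FOSL2, JUNB, JUND and FOSL1 had log2 fold changes of 0.75, 0.46, 0.35 and 0.20, and IER2 had -0.30. The median of the 10 was -0.49, with 4 above and 6 below 0, while the median of all genes was 0.01.

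Groups did not overlap in 4 of the 10 genes (41.8% of all genes), 3 with both doxorubicin libraries above both untreated ones (FOSL2, JUNB, JUND; 30.3% of all genes) and 1 with both below (IER2; 11.5% of all genes). An exact permutation test of 2 against 2 libraries, two-sided, cannot give a p-value under 0.333.

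Each untreated library was then compared with the 2 doxorubicin libraries alone. These fits share the doxorubicin libraries, and the lone untreated library is assumed to vary like the doxorubicin pair, so their p-values do not include the gap between untreated libraries. The common dispersion was 0.0227 in both of them and 0.236 in the fit of all 4 libraries.

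Without untreated replicate 2, 4 of the 10 genes rose and 0 fell by the same thresholds, against 3.88% and 0.556% of 18356 genes tested (4.44% in either direction). ATF3 rose by 2.33 on the log2 scale (standard error 0.28, edgeR adjusted p = 1.41e-13) and JUN by 1.79 (0.25, edgeR adjusted p = 4.17e-10). FOSB rose by 1.21 (0.38, edgeR adjusted p = 0.0309) and FOSL1 by 1.07 (0.25, edgeR adjusted p = 0.000902). In linear terms the mean of the doxorubicin libraries was 5.57-fold the level of untreated replicate 1 for ATF3, 3.84-fold for JUN, 2.59-fold for FOSB and 2.33-fold for FOSL1. DESeq2 called 3 of these 4 in the same 3 libraries, FOSB not among them. For JUNB the log2 value was 0.73 (standard error 0.23, edgeR adjusted p = 0.0271), short of the fold threshold. FOS, EGR1, JUND and FOSL2 had 0.37, 0.29, 0.25 and 0.17, and IER2 had -0.28. The median of the 10 was 0.55, beside 0.05 for all genes.

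Without untreated replicate 1, 1 of the 10 genes rose and 5 fell, against 21.2% and 23.2% of 19606 genes tested (44.4% in either direction). FOSB fell by 5.50 on the log2 scale, EGR1 fell by 3.22, FOS fell by 3.03, ATF3 fell by 2.62 and JUN fell by 1.46 (standard errors 0.25, 0.25, 0.25, 0.22 and 0.22, and edgeR adjusted p between 1.05e-98 and 2.45e-10). FOSL2 rose by 1.82 (standard error 0.25, edgeR adjusted p = 2.17e-12). JUND, JUNB, IER2 and FOSL1 had log2 fold changes of 0.55, 0.31, -0.25 and -0.27. The call and its direction for JUN, ATF3 and FOSB therefore went with the untreated library used.

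**Figure D3:**
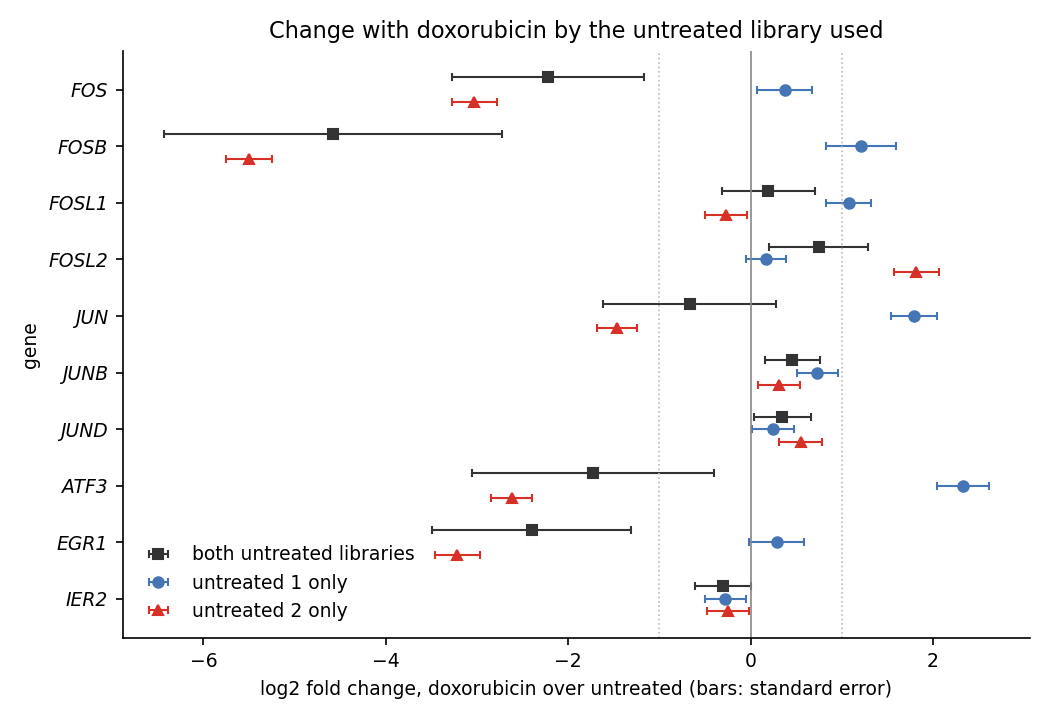
Log2 fold change of doxorubicin over untreated (x axis, bars are standard errors) for the 10 genes (y axis), with both untreated libraries (black), replicate 1 only (blue) or replicate 2 only (red), and dotted lines at -1 and 1. JUN, ATF3 and FOSB lie above 1 against replicate 1 and below -1 against replicate 2.

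Genes around these factors were read from 5 lists of 86 genes in all. Over the 4 libraries 0 of them were called. Their counts against single untreated libraries are read beside the shares of all genes that rose and fell, 3.88% and 0.556% against replicate 1 and 21.2% and 23.2% against replicate 2. Among 12 tested dimer partners (Maf, BATF and NFE2L proteins, ATF2, ATF7, CREB5 and JDP2, which can pair with Fos or Jun proteins), 3 rose and 0 fell against untreated replicate 1, and of 13 tested against replicate 2, 4 rose and 5 fell. MAFF and CREB5 were among the 3 and were named after their values were seen. CREB5 had 0.0827 and 0.173 CPM in untreated and 1.31 and 1.12 CPM in doxorubicin libraries, with 3 counts in untreated replicate 1. MAFF had 22.2 and 146 CPM in untreated and 67.8 and 75.2 CPM in doxorubicin libraries. In MAFF the doxorubicin libraries lay between the untreated ones, as in JUN and ATF3. NFE2L1, the most abundant partner, had 353 and 1505 CPM in untreated and 503 and 411 CPM in doxorubicin libraries. MAFG, MAFK and ATF2 had log2 fold changes of -0.22, 0.65 and 0.70 over the 4 libraries (standard errors 0.43, 0.30 and 0.54).

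In the list of other immediate early genes, untreated replicate 2 was at least 2-fold above replicate 1 in 14 of 26 tested (23.5% of all genes) and the highest library in 17 (36.6% of all genes). Against replicate 1, 1 of 26 rose (KLF2, named after its values were seen) and 0 fell, and against replicate 2, 4 of 28 rose and 14 fell (21.2% and 23.2% of all genes). ARC, an immediate early gene of neurons, had 1.13 and 41.7 CPM in untreated and 2.54 and 2.97 CPM in doxorubicin libraries. DUSP1, the phosphatase that turns off MAP kinases, ran the other way, with 380.2 and 188 CPM in untreated and 593 and 618 CPM in doxorubicin libraries. MYC had 385 and 94.0 against 337 and 345 CPM, and IER5 had 259 and 505 against 274 and 374 CPM.

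The 18 upstream regulators (SRF, its ternary complex and actin-linked cofactors, CREB1 and MAP kinases) had 0 calls against untreated replicate 1. Against replicate 2, 9 rose and 1, SRF, fell (21.2% and 23.2% of all genes). SRF had 119.6 and 279.7 CPM in untreated and 104 and 119 CPM in doxorubicin libraries, so only untreated replicate 2 was high. ELK1 and CREB1 had log2 fold changes of 0.07 and 0.79 over the 4 libraries (standard errors 0.34 and 0.46).

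Of 17 AP-1 target genes tested over the 4 libraries, 4 were higher and 0 lower at an unadjusted p-value under 0.05 (edgeR), against 2.66% and 1.73% of all genes. Against untreated replicate 1, 5 of 17 rose (MMP1, CXCL8, VEGFA and HMOX1 among them) and 0 fell, and against replicate 2, 5 of 18 rose (CXCL8, CCND1, VEGFA and LIF among them) and 3 fell (MMP3, MMP10 and PLAU, at most 1.14 CPM in any library). The shares of all genes were 3.88% and 0.556% against replicate 1 and 21.2% and 23.2% against replicate 2, so the 5 of 18 were near the share of all genes. Apart from CXCL8 and CCND1, these were named after their values were seen. CXCL8, a neutrophil chemokine, had 1.49 and 3.95 CPM in untreated and 13.3 and 19.1 CPM in doxorubicin libraries. Over the 4 libraries the fitted difference was 2.43 on the log2 scale (standard error 0.63, edgeR adjusted p = 0.773). VEGFA, the angiogenic growth factor, had 117 and 114 CPM in untreated and 301 and 262 CPM in doxorubicin libraries. In CXCL8 and VEGFA both doxorubicin libraries were above both untreated ones, unlike in JUN, ATF3 and FOSB. CD44, TIMP1, CCND1 and TGFB1 had log2 fold changes of 0.21, 0.12, 0.70 and 0.00 over the 4 libraries (standard errors 0.28, 0.32, 0.56 and 0.32). CCND1 had 267 and 83.5 CPM in untreated and 319 and 317 CPM in doxorubicin libraries.

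Of the 8 genes for turnover and inhibition (ubiquitin ligase parts for JUN and corepressors, NAB1 and NAB2 of EGR1 among them), 0 were called against untreated replicate 1, and 2, ITCH and NCOR1, rose against replicate 2, near the 21.2% of all genes. NAB2 had a log2 fold change of 0.06, MEN1 -0.15, NCOR1 0.41 and ITCH 0.72 over the 4 libraries (standard errors 0.35, 0.32, 0.64 and 0.56).

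**Figure D4:**
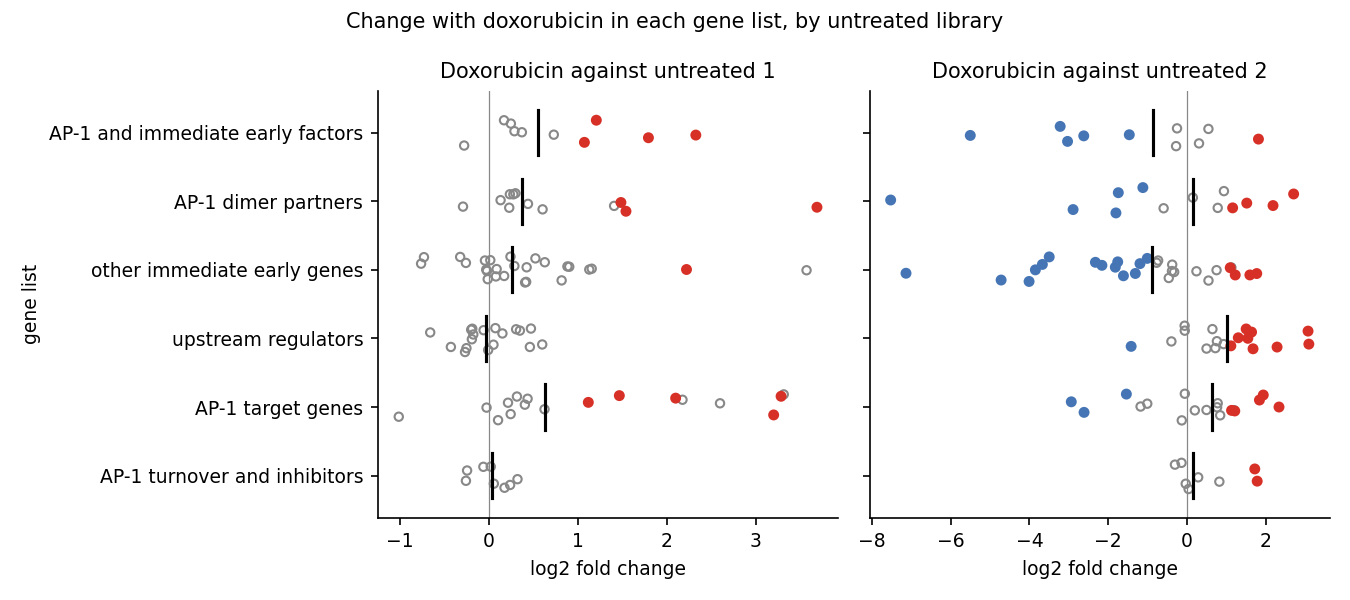
Log2 fold change (x axes, with different scales) of the 10 genes and of the genes of 5 lists (y axis) for doxorubicin against untreated replicate 1 (left) and replicate 2 (right). Filled points were called (red higher, blue lower), open points were not, and black lines are medians. The 10 genes have a median of 0.55 on the left and -0.87 on the right.

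The patterns most like those of FOS and JUN were sought over the 4 libraries, among 11693 other genes with a mean of at least 100 counts, by the Euclidean distance of centred log2 CPM. For FOS these were RABL2A, THAP10 and IQCD (distances 0.10, 0.11 and 0.15), with THAP10 at 6.09 and 63.4 CPM in untreated and 7.05 and 9.07 CPM in doxorubicin libraries, and 80 genes lay within a distance of 0.5. For JUN they were CCNG2, TMEM158 and PPP1R15A (0.21, 0.27 and 0.35), with 9 genes within 0.5. PPP1R15A, which encodes the stress phosphatase subunit GADD34, had 49.0 and 422 CPM in untreated and 180 and 241 CPM in doxorubicin libraries. A likeness over 4 points is a description only.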

How the data were processed

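RNA-seq of 4 libraries, 2 per group by title, was used. The authors checked and trimmed reads (FastQC, Cutadapt), aligned to hg38 by HISAT2 and deposited raw counts per gene for each library, made by HTSeq according to the methods. Per the file headers the annotation is the basic set of GENCODE release 31. Tool versions and the use of strand are not given in the sources used here.

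The tests used edgeR 4.0.16 under R 4.3.3: glmQLFit in its later form and glmQLFTest, after filterByExpr and TMM scaling, with a prior count of 0.125. This test reports no standard error. Those given in the text and figures are the size of the log2 fold change divided by the square root of the F statistic. CPM are counts over the library total. Positions come from GENCODE release 44 (GRCh38), matched by symbol for 14441 of the 17479 genes tested (82.6%). Promoters come from RefSeq. Python 3.11.15, pandas 2.3.3, NumPy 2.4.6, SciPy 1.17.1 and matplotlib 3.10.9 were used. The members and lists were chosen with earlier results of these data known. The members are all named, and from each list the 3 genes with the highest mean CPM and those with the highest and lowest log2 fold change (mean CPM of at least 1), and the 3 genes most alike to FOS and to JUN. Some genes that this rule names are not reported here. The fits were tested on simulated data with the spread of these libraries. There the fit of 4 libraries missed most of the changed genes, and the fit without untreated replicate 2 missed fewer. Each of these simulations was given the spread of its own fit, so the difference between them follows from that spread. The lone untreated library was given the spread of the doxorubicin pair, which these data cannot check. A lack of calls over the 4 libraries does not show a lack of change. Alternatives were DESeq2 1.42.0, RLE factors, library size alone, a filter at 1 CPM in 2 libraries or none, the replicate block, dropping each library in turn and a prior count of 2, and, chosen after seeing the data, the earlier form of the fit and TMM factors for CPM. Intervals and the limit of 3 counts cover counting error only.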

Additional observations from a re-analysis of the deposited data

How the results depend on the processing

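The number of genes called moved from 0 to 90 with DESeq2 (47 higher) and 20 with the replicate block (16 higher), and was 0 to 8697 with 1 library left out (815 without untreated replicate 2, 8697 without untreated replicate 1). Genes at an unadjusted p-value under 0.05 moved from 768 to 1275 with DESeq2, both of 17479 genes tested. Without a filter they were 1543, but of 36677 genes tested, so the higher count is not a higher share. They were 78 to 12194 with 1 library left out (78 and 116 without doxorubicin replicates 1 and 2, 3508 and 12194 without untreated replicates 2 and 1). Those fits tested 18356 to 19873 genes. Of the 10 factors, 1 (FOSB, DESeq2 adjusted p = 0.0345) was called with DESeq2, 0 with the other alternatives on 4 libraries, and 0 to 6 with 1 library left out: 4 without untreated replicate 2, 6 without untreated replicate 1. Their median log2 fold change was -0.87 to 0.55 with 1 library left out, the upper value without untreated replicate 2, and the number of factors without overlap 4 to 10, the upper value without either untreated library, when a single untreated value is set against 2. In the fit without untreated replicate 2, DESeq2 called 352 genes in place of 815, and library size alone, RLE factors and the filters gave 690 to 1075.

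With 1 library left out, log2 fold changes were -3.03 to 0.37 for FOS, -5.50 to 1.21 for FOSB, -0.27 to 1.07 for FOSL1, -1.46 to 1.79 for JUN, -2.62 to 2.33 for ATF3 and -3.22 to 0.29 for EGR1, each with a change of sign. FOSL2, JUNB, JUND and IER2 kept their sign. Library size alone moved the median of all genes from 0.01 to 0.17 and changed the sign of none of the 10. With the replicate block JUN changed sign, to 0.12, the other log2 fold changes that moved by over 1.5 times were -0.23 for ATF3, -2.38 for FOSB, -1.40 for FOS, -1.56 for EGR1 and 0.36 for FOSL1, and the median of the 10 was -0.05, with 0 of the 10 called. The deviations of same-numbered libraries had a correlation of -0.03. Between the untreated libraries 6229 of 17479 genes were 2-fold or more apart, against 107 between the doxorubicin libraries. That gap can hide an effect shared by same-numbered libraries, so pairing cannot be judged from this value. The cause of the differences between settings was not tested, apart from the libraries left out. Depth limits FOSB most, with 77 counts in untreated replicate 1.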
